A study of Mus musculus with 6 samples.

Results

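The mesothelial surface genes described here are Msln, Upk3b, Upk1b, Lrrn4, Gpm6a and Muc16, taken by symbol from the deposited gene table. All 6 were found among its 22322 genes. They were measured by RNA sequencing in the epididymal white adipose tissue (eWAT) of mice that had received a high fat diet for 17 weeks. Of the 6 libraries 3 were wild type and 3 CD44-KO, CD44 being a cell surface receptor for hyaluronan, and the diet was common to both genotypes. The sources used here do not give strain, age, the knockout allele or any pooling of animals. A library was taken as 1 mouse, so the p-values measure the spread between these libraries, which may be technical where libraries do not come from separate animals.

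Mesothelium is the single sheet of flattened cells that covers the serous membranes, including the surface of the epididymal fat pad, and it supplies a lubricated surface. Its cells carry a set of membrane and surface proteins seldom seen together elsewhere. Mesothelin (Msln) is a protein anchored to the outer membrane by a glycolipid, and it binds the very large transmembrane mucin MUC16, also known as the antigen CA125. Upk3b and Upk1b encode uroplakins, membrane proteins best known from the bladder lining; uroplakin 1B is a tetraspanin. Lrrn4 encodes a membrane protein with leucine-rich repeats, and Gpm6a a 4-pass membrane glycoprotein that is abundant in neurons. In bulk tissue, fewer cells of a type and less RNA per cell cannot be told apart.

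In GENCODE M21 (GRCm38) all 6 genes are protein coding and lie on different chromosomes. Msln (ENSMUSG00000063011) is on the minus strand of chromosome 17 from 25748613 to 25754378, and Muc16 (ENSMUSG00000109564) on the minus strand of chromosome 9 from 18495455 to 18674530. Upk3b (ENSMUSG00000042985) is on the plus strand of chromosome 5 from 136038496 to 136046487. Upk1b (ENSMUSG00000049436) is on the minus strand of chromosome 16 from 38773184 to 38800328. Gpm6a (ENSMUSG00000031517) is on the plus strand of chromosome 8 from 54954843 to 55060871. Lrrn4 (ENSMUSG00000043110) is on the minus strand of chromosome 2 from 132868305 to 132880891, which is 30.0 megabases from Cd44. No other protein-coding gene of that annotation overlaps any of the 6.

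The upstream sequence of the members with a RefSeq start site is shown. The RefSeq table (GRCm38.p6) held 4 of the 6 members, with 5 start sites in all. The 250 bases before each start were searched on both strands for GGAATG (the core motif of TEAD factors, the DNA-binding partners of YAP), for AGATAA (bound by GATA factors), for TATAAA (the TATA box) and for TGANTCA (bound by AP-1), motifs chosen with the sequences in view. The TEAD motif was found in 3 of the 5 windows, 1 each of Upk3b, Lrrn4 and Gpm6a, and in 12.6% of all 32851 promoters of that length. Because the motifs were chosen with these sequences in view, these shares cannot show enrichment. Whether TEAD factors act on these genes was not tested. For Gpm6a the TEAD motif was in the window of the start far upstream of the gene's start in GENCODE. The window of the start next to the GENCODE start did not hold it. No match overlapped another motif. The sequences run 5′ to 3′ on the strand of the gene, and capitals mark the TEAD motif, which reads in reverse complement upstream of Upk3b.
Upk3b (chr5:136038246-136038495, plus strand): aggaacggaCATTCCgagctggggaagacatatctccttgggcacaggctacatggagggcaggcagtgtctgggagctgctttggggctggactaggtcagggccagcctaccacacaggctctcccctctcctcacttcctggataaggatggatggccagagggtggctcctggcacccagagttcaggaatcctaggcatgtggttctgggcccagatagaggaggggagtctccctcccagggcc
Lrrn4 (chr2:132880863-132881112, minus strand): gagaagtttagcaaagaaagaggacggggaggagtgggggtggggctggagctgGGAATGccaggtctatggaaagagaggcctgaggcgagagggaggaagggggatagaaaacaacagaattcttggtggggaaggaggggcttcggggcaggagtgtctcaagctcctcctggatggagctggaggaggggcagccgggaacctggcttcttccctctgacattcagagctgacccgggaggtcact
Gpm6a upstream start (chr8:54779184-54779433, plus strand): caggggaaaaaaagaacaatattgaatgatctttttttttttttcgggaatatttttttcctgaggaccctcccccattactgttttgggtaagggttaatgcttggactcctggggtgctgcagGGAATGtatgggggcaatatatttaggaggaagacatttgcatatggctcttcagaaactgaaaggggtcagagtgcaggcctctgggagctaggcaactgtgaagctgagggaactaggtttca
Gpm6a start next to the GENCODE start (chr8:54954478-54954727, plus strand): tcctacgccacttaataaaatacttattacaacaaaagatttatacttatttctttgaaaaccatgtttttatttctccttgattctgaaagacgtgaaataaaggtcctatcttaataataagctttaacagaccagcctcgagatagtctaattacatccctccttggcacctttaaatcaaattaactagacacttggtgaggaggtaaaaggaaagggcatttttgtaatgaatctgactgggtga
Muc16 (chr9:18674604-18674853, minus strand): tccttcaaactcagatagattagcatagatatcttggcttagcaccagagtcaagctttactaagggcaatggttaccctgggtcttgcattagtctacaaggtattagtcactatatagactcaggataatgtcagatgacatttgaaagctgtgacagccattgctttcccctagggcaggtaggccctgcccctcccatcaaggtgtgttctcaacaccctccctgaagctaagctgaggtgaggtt
The match lay 241 to 236 bases before the start of Upk3b, 196 to 191 before that of Lrrn4 and 125 to 120 before the upstream start of Gpm6a. The Muc16 window held none of the 4 motifs as spelled above. AGATAA and TGANTCA were in none of the 5 windows (9.99% and 6.75% of all promoters), and other spellings of these motifs were not searched. TATAAA was in 1 window (12.4% of all promoters), that of the Gpm6a start next to the GENCODE start. It lay on the strand opposite to the gene, 211 to 206 bases before that start. Which start site is used in these samples was not measured.

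Total expected counts per library were 16692760 to 18765009 in wild type and 15543317 to 17790847 in CD44-KO. The targeted gene fell: Cd44 counts were 3091, 10580 and 6000 in wild type against 28, 50 and 34 for CD44-KO (log2 fold change -7.27, SE 0.58; adjusted p by edgeR 0.0126, but 0.122 without wild type replicate 3 and 0.0785 without CD44-KO replicate 3). The fat markers were abundant in all 6 libraries, with a summed level of 7 adipocyte genes from 7998 to 26860 FPKM (fragments per kilobase of transcript, scaled to library depth, a measure that corrects for transcript length). CD44-KO replicate 2 stood apart through transcripts of the epididymis: 12 epididymis markers, which include the sperm-coating protein gene Crisp1, summed to 7601 FPKM there, to 9.27 and 4.81 in the other CD44-KO libraries and to 0.73 to 1.68 in wild type.

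All 6 mesothelial surface genes were at higher levels in CD44-KO fat, by 3.07-fold for Gpm6a and 5.81-fold to 7.65-fold for the other 5. For each of the 6, every CD44-KO library lay above every wild type library, whereas this held for 19.7% of the 13829 genes tested. None of the 6 passed the test across all genes: edgeR's quasi-likelihood test with Benjamini-Hochberg adjustment gave values from 0.0742 to 0.145, against a threshold of 0.05 under which 1.74% of tested genes were called higher and 0.882% lower. Without wild type replicate 3 it called no gene in either direction, with 8.97% higher at an unadjusted p under 0.05. At an unadjusted p under 0.05 all 6 were higher, against 16.3% of all genes tested, and none lower (14.7% of all genes). Their levels were low throughout, with 32 to 210 counts for the 6 genes together in a wild type library and 450 to 787 in a CD44-KO library.

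**Figure D1:**
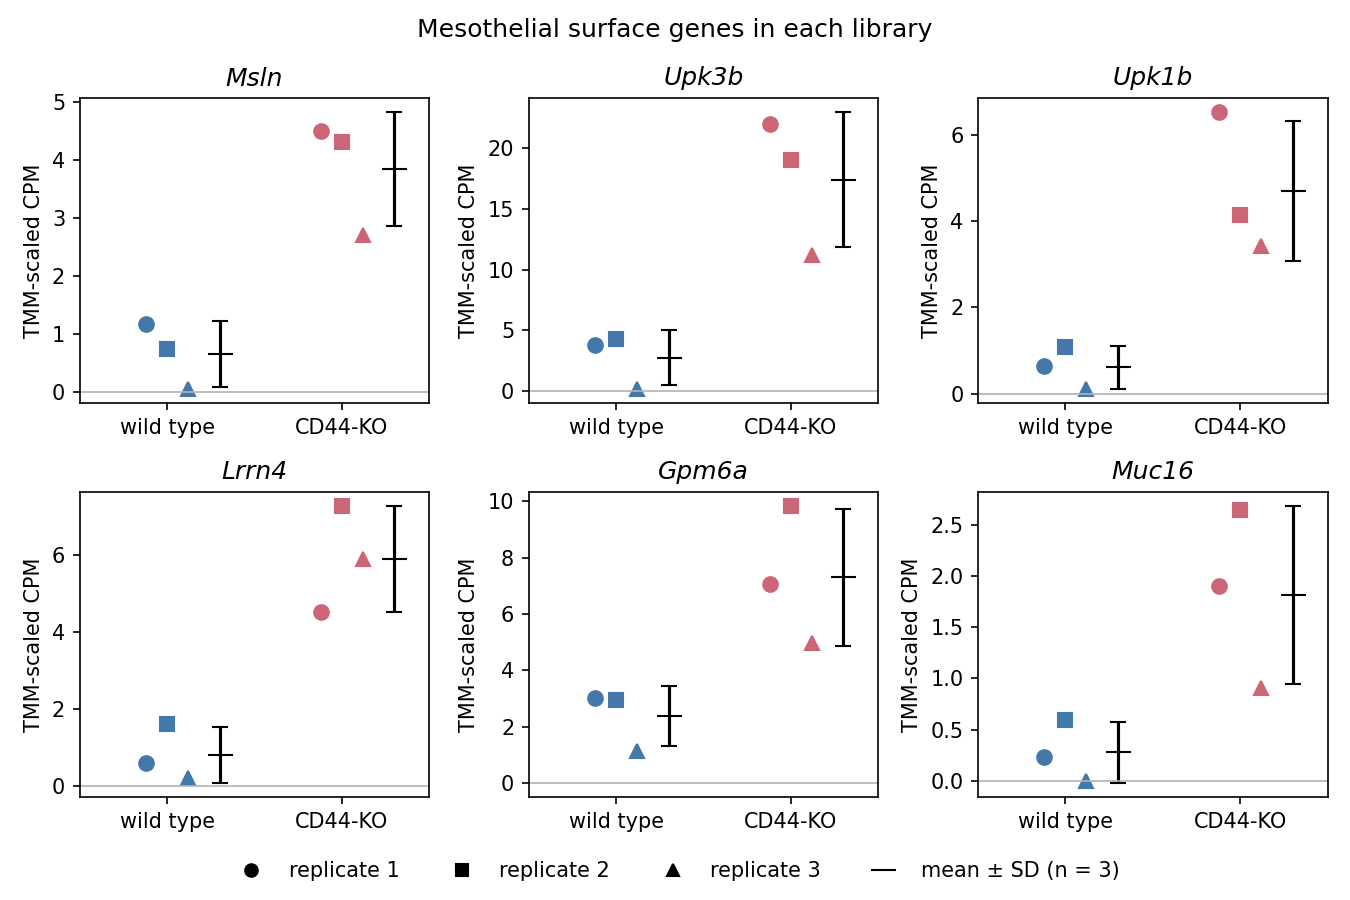
TMM-scaled CPM (y axis) of each mesothelial surface gene in wild type (blue) and CD44-KO (red) libraries, with a marker shape per replicate and bars for the mean ± SD of 3 libraries. In every panel all CD44-KO points lie above all wild type points, and wild type replicate 3 is the lowest.

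The ligand and receptor pair of the group, mesothelin and MUC16, had few counts in wild type fat, 1 to 20 a library for Msln and 0 to 11 for Muc16. Msln stood at 1.18, 0.754 and 0.0522 CPM (counts per unit of library depth, TMM-scaled) in wild type replicates 1 to 3 and at 4.51, 4.32 and 2.72 CPM in CD44-KO replicates 1 to 3. The lowest CD44-KO library was thus above the highest wild type library, and wild type replicate 3 held a single count. The difference was 5.81-fold (95% interval 1.38 to 24.4), a log2 fold change of 2.54 (SE 0.86, adjusted p by edgeR 0.116). Muc16 stood at 0.236, 0.593 and 0 CPM in wild type and at 1.90, 2.64 and 0.906 CPM in CD44-KO. Its 0 counts in wild type replicate 3 allow a level of up to 0.157 CPM (3 counts), a limit for counting error only. The fold was 6.45 (95% interval 1.12 to 37.2), a log2 fold change of 2.69 (SE 1.05, adjusted p by edgeR 0.145), and the gap between the groups, from 0.593 to 0.906 CPM, was small beside the spread within CD44-KO.

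The uroplakin genes included the most abundant transcript of the set. Upk3b stood at 3.83, 4.31 and 0.157 CPM in wild type and at 22.0, 19.0 and 11.2 CPM in CD44-KO. Wild type replicate 3, with 3 counts, was far below its group, and the fold of 6.29 had a wide 95% interval of 1.3 to 30.4 (log2 fold change 2.65, SE 0.94, adjusted p by edgeR 0.126). Upk1b stood at 0.649, 1.08 and 0.104 CPM in wild type and at 6.53, 4.14 and 3.43 CPM in CD44-KO. This was the largest fold of the 6, at 7.65 (95% interval 2.18 to 26.9, log2 fold change 2.94, SE 0.75, adjusted p by edgeR 0.0778). For both uroplakins CD44-KO replicate 1 was the highest library and CD44-KO replicate 3 the lowest of its group.

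Lrrn4 and Gpm6a, the genes of a leucine-rich repeat protein and a 4-pass membrane glycoprotein, had the narrowest intervals. Lrrn4 stood at 0.590, 1.62 and 0.209 CPM in wild type and at 4.51, 7.27 and 5.89 CPM in CD44-KO, a 7.26-fold difference (95% interval 2.23 to 23.6, log2 fold change 2.86, SE 0.71). Its edgeR adjusted p of 0.0742 was the lowest of the 6. Unlike the other 5, it was lowest of the CD44-KO libraries in replicate 1. Gpm6a stood at 3.01, 2.96 and 1.15 CPM in wild type and at 7.06, 9.85 and 4.98 CPM in CD44-KO. Its fold was the smallest, at 3.07 (95% interval 1.41 to 6.70, log2 fold change 1.62, SE 0.47, adjusted p by edgeR 0.0923), and it kept 22 counts in wild type replicate 3, where the other 5 members had 10 counts together.

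All 6 members passed the filter on low counts, but 5 of them reached its minimum in every library of CD44-KO and not of wild type; Gpm6a reached it in all 6 libraries. Msln, Upk3b, Upk1b and Lrrn4 reached the minimum in 2 wild type libraries and Muc16 in 1. A filter passed more readily in the group in which a gene is high favours genes that differ. Neither the count of 6 nor their median log2 fold change of 2.67 (0.03 over all genes tested) is therefore support for a difference of the set. With no filter on low counts edgeR called 0 of the 6 as well, with adjusted p from 0.0963 to 0.202 (5 were higher at an unadjusted p under 0.05, as were 13.9% of the genes in that fit).

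The call differed between tests. DESeq2's Wald test gave adjusted p under 0.05 for 5 of the 6 members, all but Muc16, and called 9.65% of the 15309 genes with an adjusted p higher in CD44-KO. In the authors' deposited table the adjusted p was likewise under 0.05 for 5 of the 6 (6.07% of 22322 genes were higher at that threshold). In that table the values were 0.00223 for Lrrn4, 0.00356 for Upk1b, 0.0227 for Gpm6a, 0.0269 for Upk3b, 0.0339 for Msln and 0.0933 for Muc16. The authors' unadjusted p for Muc16, 0.0185 in the authors' deposited table, is that of DESeq2 here to 3 digits, so these 2 sources are not separate evidence.

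Wild type replicate 3 was the lowest of the 6 libraries for all 6 members, as it was for 13.2% of genes tested. The summed level of the 6 was 3.34, 3.78 and 0.56 FPKM in wild type and 16.5, 14.6 and 9.89 FPKM in CD44-KO. The range within wild type was therefore larger in proportion than that within CD44-KO. Without wild type replicate 3 the log2 fold changes were lower, from 1.28 for Gpm6a to 2.43 for Upk1b, and edgeR's adjusted p ran from 0.221 to 0.297. Without wild type replicate 2 those of Lrrn4 and Muc16 were 3.86 and 3.90, a 14.6-fold and a 14.9-fold difference, and without wild type replicate 1 that of Msln was 3.25. Each of the 6 fits that left out 1 library called 0 members, and no member changed sign in any. Without wild type replicate 3 all 6 were higher at an unadjusted p under 0.05 by edgeR, as were 8.97% of the genes in that fit. Leaving out any other single library gave 3 to 6 members at that threshold, against 11.4% to 18.1% of genes. Over all genes these fits called few or many higher. The calls were 0 of 14218 without wild type replicate 3, 2 of 14226 without wild type replicate 2 and 5 of 14186 without CD44-KO replicate 3. The most were 1007 of 14119, without CD44-KO replicate 1.

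**Figure D2:**
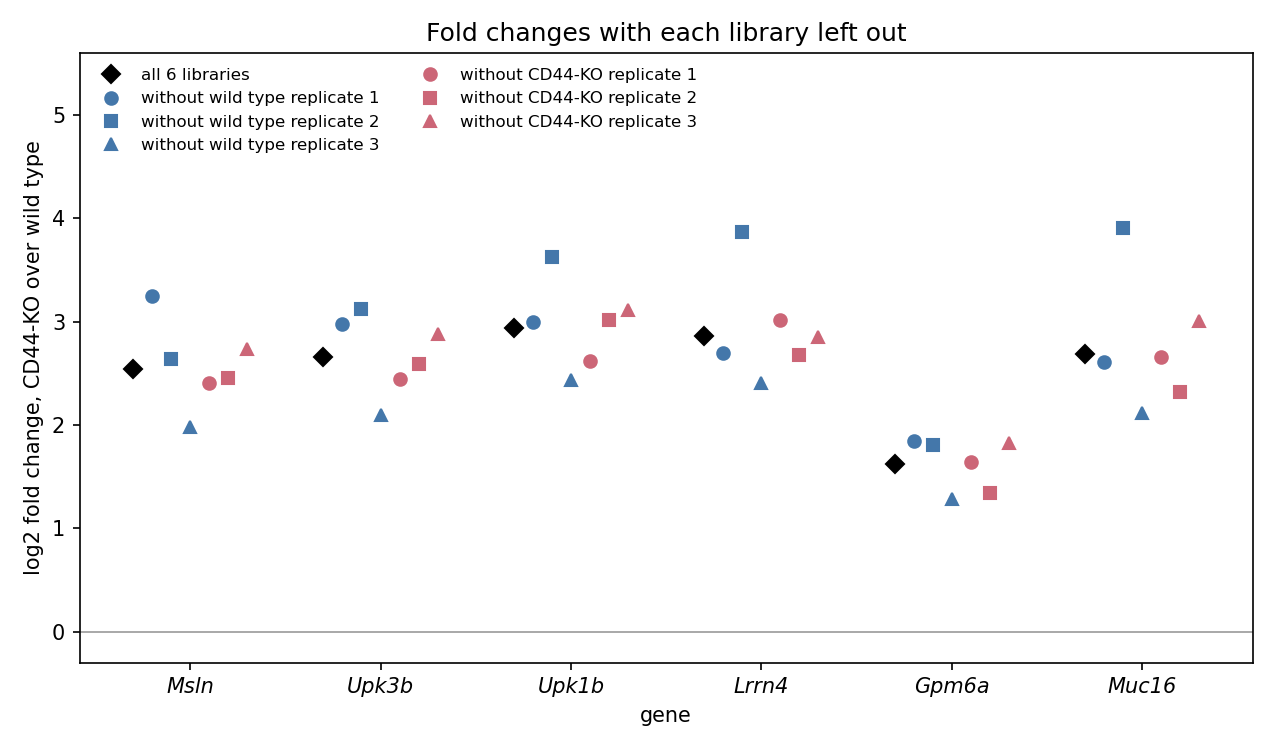
Log2 fold change of each mesothelial surface gene (y axis, CD44-KO over wild type) with all 6 libraries (black diamonds) and with each wild type (blue) or CD44-KO (red) library left out. All values lie above 0, and the lowest for every gene is that without wild type replicate 3.

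Per unit of length, the order of the members in CD44-KO fat ran from Upk3b (4.83 ± 1.58 FPKM, SD, n = 3) through Upk1b (2.44 ± 0.91), Gpm6a (2.21 ± 0.67), Msln (1.77 ± 0.46) and Lrrn4 (1.55 ± 0.30) to Muc16 (0.863 ± 0.290). Neighbours in this order overlapped in their library ranges except Lrrn4 (1.23 to 1.83 FPKM) and Muc16 (0.57 to 1.15), and Upk3b was the highest member in each CD44-KO library. In wild type the order was Upk3b (0.790 ± 0.644 FPKM), Gpm6a (0.743 ± 0.332), Msln (0.330 ± 0.282), Upk1b (0.327 ± 0.256), Lrrn4 (0.220 ± 0.197) and Muc16 (0.150 ± 0.135) and all neighbours overlapped. The Muc16 level on this scale is uncertain. The length behind its FPKM, computed from count, FPKM and library total, ran from 1261 to 2843 bases between libraries, against 26350 annotated exonic bases, while for Upk3b it was 3528 to 3541 of 3530 bases.

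The makeup of the set was similar in the CD44-KO libraries. Upk3b held 38.1%, 34.6% and 31.9% of the summed FPKM in CD44-KO replicates 1 to 3, and Msln 12.9%, 13.2% and 12.6%. Lrrn4 varied more, with 7.45%, 12.5% and 16.0%, and Upk1b held 21.1%, 14.0% and 18.2%. In wild type replicates 1 and 2 Upk3b held 32.9% and 32.3%, and Gpm6a 28.4% and 24.3%, above its 13.4% to 19.7% in CD44-KO. In wild type replicate 3 Gpm6a made up 64.3% of a sum that rested on 32 counts.

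Across the 6 libraries, which share the difference between genotypes, Pearson's r of log2 CPM between pairs of members ran from 0.91 to 0.99 over 15 pairs (median 0.96). After each gene was centred within its genotype, r ran from 0.67 (Msln and Lrrn4) to 0.98 (Msln and Upk3b), with a median of 0.89, values to which the low wild type replicate 3 contributes in every pair. These are descriptions of 6 libraries.

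The genes whose profile was most like the mean standardised profile of the 6 members were sought among 12912 tested genes averaging 1 CPM or more. The closest by Pearson's r over the 6 libraries was Bnc1 (r = 0.997), which encodes the zinc finger protein basonuclin 1. Igfbp2, which encodes a binding protein of insulin-like growth factors, and Pkhd1l1 were also among the closest 5 (r = 0.981 and 0.968), with Arl3 (0.982) and Wdr90 (0.98). Bnc1 stood at 0.295, 0.593 and 0 CPM in wild type and at 2.08, 2.28 and 1.36 CPM in CD44-KO. Igfbp2 stood at 0.767, 0.862 and 0.365 against 2.97, 2.64 and 2.07 CPM, and Arl3 at 19.5 to 21.6 against 23.8 to 24.6 CPM. Centred within genotype, Bnc1 (0.993) was again the closest, followed by Naa16 (0.98), Igfbp2 (0.973), Ppargc1b (0.962) and Nr4a3 (0.960), which had log2 fold changes of 2.66, -0.06, 1.94, 0.78 and -0.62 in that order. These are the top ranks of 12912 genes over 6 libraries, so the values of r alone are not support for a link to the members. Bnc1, with 5, 11 and 0 counts in wild type, was also on the list of other mesothelial genes given next.

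Other genes known from mesothelium went both ways. Of 16 such genes 15 were tested. Of these, 1 rose (Krt19) and 0 fell by edgeR's adjusted p. At an unadjusted p under 0.05, 9 were higher and 3 lower, where 16.3% and 14.7% of all genes were. DESeq2, which gave no adjusted p for Krt18, called 7 of the other 14 higher and 3 lower, where it called 9.65% and 9.41% of all genes. In 9 the CD44-KO libraries lay above all wild type libraries and in 3 below, against 19.7% and 18.1% of all genes. The median log2 fold change of the 15 was 1.51 (0.03 over all genes tested). Bnc1, Krt7, Krt18 and Krt19 had 0 to 9 counts in wild type replicate 3, under the filter's minimum, and reached it in every CD44-KO library. Neither these counts of genes nor the median is therefore support for a difference of the list. Calb2, the gene of calretinin, had no counts in any library.

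The largest folds on this list were those of keratin genes, which were highest in the library with epididymis transcripts. Krt19, a keratin of simple epithelia, rose from 0.855 ± 0.359 to 10.8 ± 6.82 CPM, with 1.18, 0.916 and 0.470 CPM in wild type and 10.8, 17.7 and 4.01 CPM in CD44-KO (log2 fold change 3.66, SE 0.65, adjusted p by edgeR 0.0473). Without CD44-KO replicate 2 its log2 fold change was 3.11 with an edgeR adjusted p of 0.0747, and of the 6 fits with a library left out only that without CD44-KO replicate 1 kept the call. Krt8 and Krt18, which encode partner keratins, stood at 15.2, 196 and 6.41 and at 12.8, 221 and 6.93 CPM in CD44-KO, against at most 1.72 and 0.916 CPM in wild type. Krt7 stood at 3.20, 10.8 and 0.842 CPM in CD44-KO, where replicate 3 was close to the highest wild type library (0.808 CPM). In all 4 keratins CD44-KO replicate 2 was the highest library; among the 6 members this held for Lrrn4, Gpm6a and Muc16.

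Wt1, Gata6, Rspo1 and Nkain4 were at higher levels in CD44-KO, with smaller folds than the members other than Gpm6a. Wt1, the gene of the zinc finger factor WT1, which lies 2.2 megabases from Cd44, stood at 2.71, 2.53 and 2.66 CPM in wild type and at 6.77, 5.41 and 8.48 CPM in CD44-KO (log2 fold change 1.38, SE 0.28, adjusted p by edgeR 0.0550). Wild type replicate 3 was not low for Wt1, in contrast to the members. Gata6, a GATA factor gene, stood at 6.19, 5.23 and 4.07 against 12.3, 10.9 and 20.9 CPM (adjusted p by edgeR 0.0594). Rspo1, which encodes an enhancer of Wnt signalling, stood at 2.54, 3.72 and 1.93 against 12.9, 8.29 and 8.55 CPM (adjusted p by edgeR 0.0503), and Nkain4 at 1.15 to 1.47 against 2.07 to 5.94 CPM. Without CD44-KO replicate 1 edgeR called Wt1, Gata6 and Rspo1, at adjusted p of 0.0420, 0.0366 and 0.0376, in a fit that called 7.13% of genes higher and 9.65% lower.

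The remaining genes of the list were mostly at lower or similar levels in CD44-KO. Aldh1a2, which encodes an enzyme of retinoic acid synthesis, stood at 30.1, 25.3 and 39.4 CPM in wild type and at 15.0, 14.8 and 8.80 CPM in CD44-KO (log2 fold change -1.3, SE 0.27, adjusted p by edgeR 0.0591, or 0.0389 without CD44-KO replicate 1). Prg4, the gene of the lubricant proteoglycan lubricin, and Lrrn4cl had log2 fold changes of -1.47 and -1.20, with no overlap between the groups. Pdpn (podoplanin) and Slpi, a protease inhibitor gene, had -1.15 and 0.99 with overlapping groups. Cldn15, a claudin gene, stood at 36.7 to 61.0 CPM in wild type and at 51.6 to 58.9 in CD44-KO, a log2 difference of 0.12 with a 95% interval from -0.38 to 0.61.

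**Figure D3:**
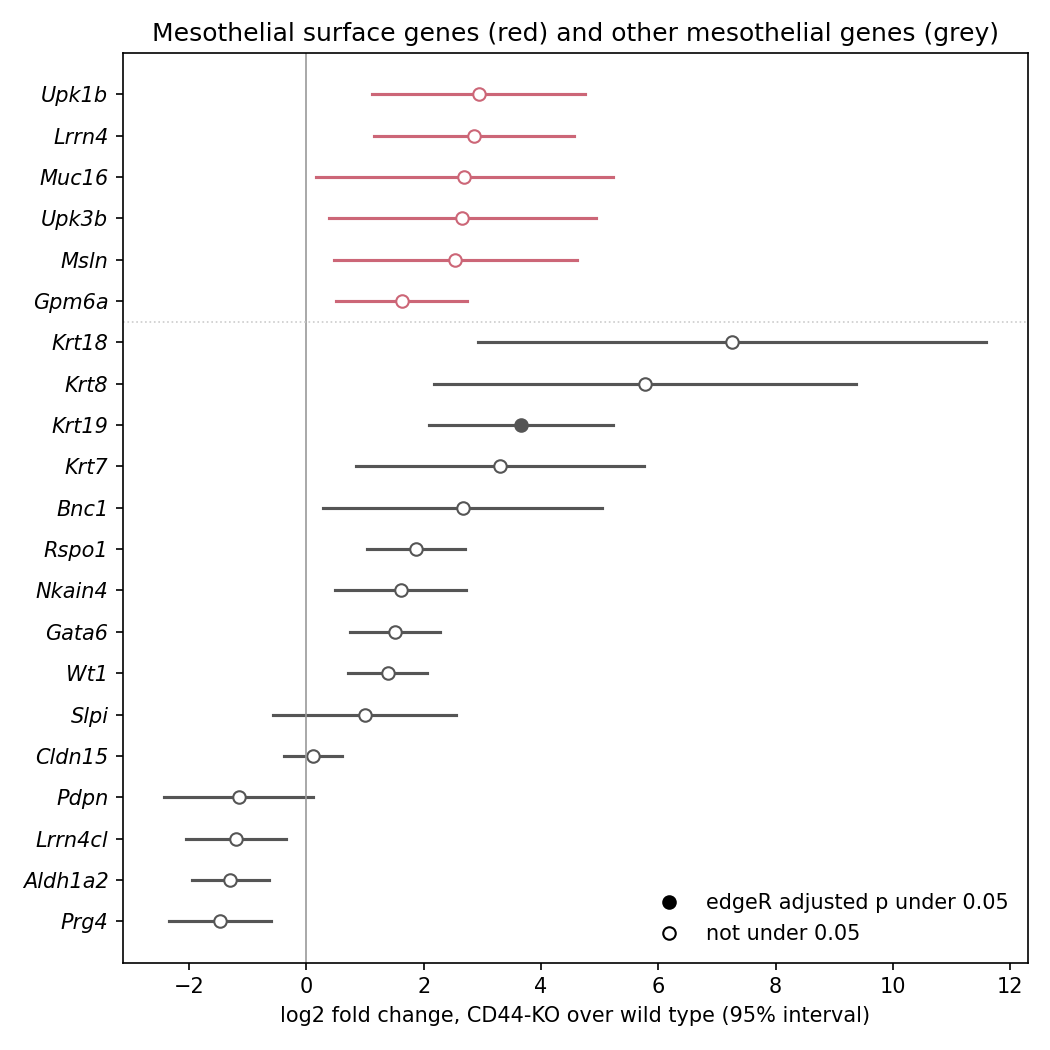
Log2 fold change with its 95% interval (x axis) for the 6 mesothelial surface genes (red) and 15 other mesothelial genes (grey); filled points have an edgeR adjusted p under 0.05. Krt19 is the only filled point, and 4 genes of the lower group lie below 0.

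**Figure D4:**
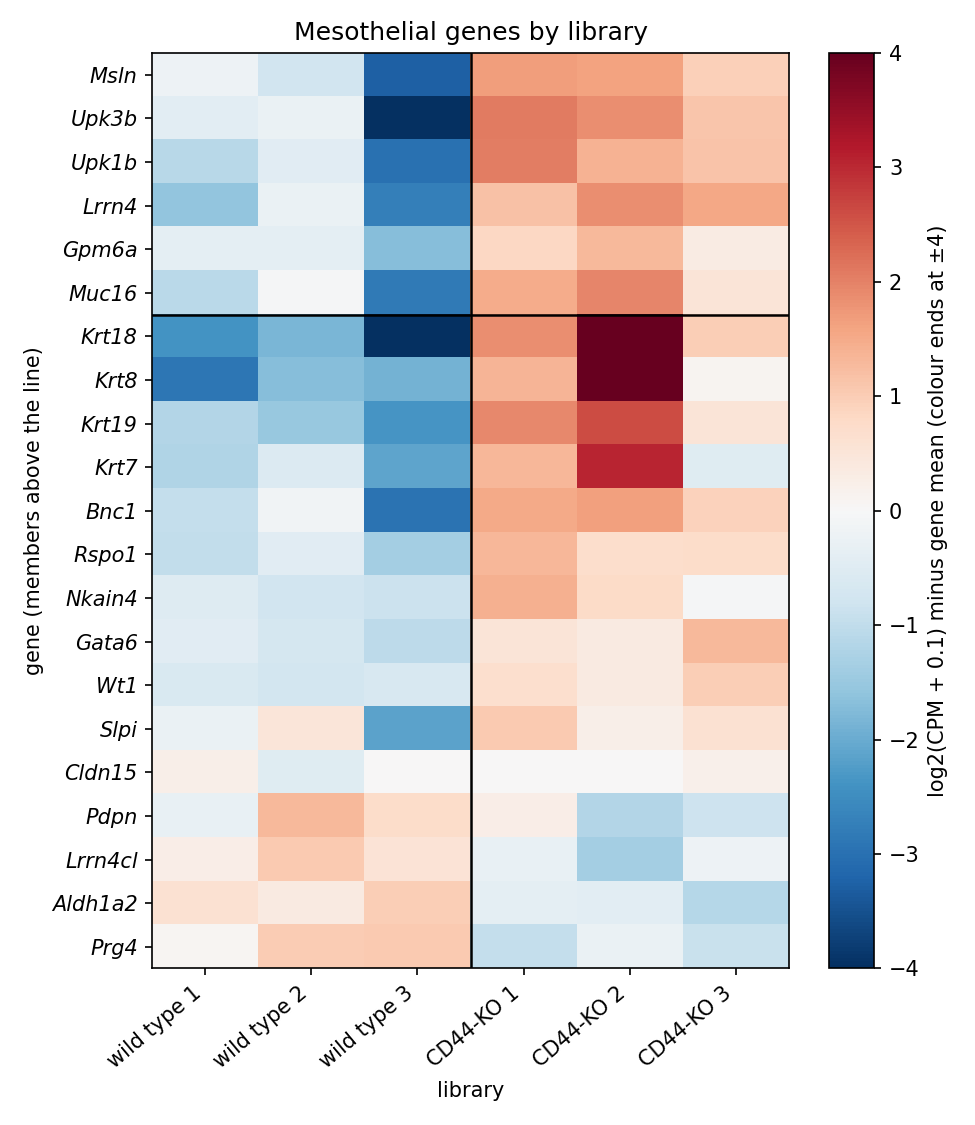
Level of each gene by library as log2(CPM + 0.1) minus the mean of the gene (colour, ending at ±4), with the 6 members above the line and 15 other mesothelial genes below it. Wild type replicate 3 is the bluest library for each member, and CD44-KO replicate 2 the reddest for the 4 keratins.

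Relatives of the members by family went both ways. Of 14 relatives 6 were tested, of which 0 rose and 1 fell by edgeR's adjusted p, where 1.74% and 0.882% of all genes did. At an unadjusted p under 0.05, 2 were higher and 2 lower, where 16.3% and 14.7% of all genes were. DESeq2's adjusted p was 2.4e-05 for Gpm6b and 0.000709 for Lrrn2, both lower in CD44-KO, and 0.0311 for Lrrn1, which was higher. The one that fell by edgeR was Gpm6b, the closest relative of Gpm6a, from 29.4 ± 9.29 to 7.18 ± 3.00 CPM (log2 fold change -2.03, SE 0.37, adjusted p by edgeR 0.0475). Leaving out CD44-KO replicate 1 or 2 kept that call, and leaving out any other single library lost it (adjusted p by edgeR 0.0582 to 0.235). Gpm6a and Gpm6b thus had log2 fold changes of opposite sign (1.62 and -2.03); the difference between them was not tested. Among relatives of Lrrn4, Lrrn1 and Lrrn2 differed by 1.29 and -1.55 on the log2 scale (adjusted p by edgeR 0.0996 and 0.0554), and Lrrn3 had -0.02. The epithelial mucin gene Muc1 had -0.14 and overlapping groups.

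The uroplakin genes Upk2 and Upk3a were nearly absent. Upk2 had no counts in any library and Upk3a had 1 count, in CD44-KO replicate 2. Upk3bl, a paralog that lies beside Upk3b on chromosome 5, had 0 to 6 counts a library. How reads shared by such copies were assigned was not given. Upk1a, the paralog of Upk1b, had 249 counts in CD44-KO replicate 2, the library with epididymis transcripts, and 1 to 8 in each of the other 5. Muc4, Mslnl, Otoa and Strc had at most 8 counts in any library.

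Some markers of epididymis and of epithelium were also at higher levels in CD44-KO. Of 12 epididymis markers 2 were tested, Crisp1 and Adam7. For both, all CD44-KO libraries were above all wild type libraries, as for 19.7% of genes tested. The 12 markers summed to 19 to 33 counts in wild type and to 261, 203678 and 123 in CD44-KO replicates 1 to 3. Crisp1 alone made 6360 of the 7601 FPKM in CD44-KO replicate 2, where 6 of the 12 had 0 to 7 counts. Lcn9 had no counts in any library. Of 5 epithelial markers, which include the adhesion gene Epcam, the 4 tested were all at higher levels in CD44-KO, with sums of 0.60 to 0.77 FPKM in wild type against 8.06, 166.5 and 2.56 in CD44-KO. For these 6 tested markers the adjusted p by edgeR ran from 0.0774 to 0.115. In CD44-KO replicates 1 and 2 the mesothelial surface genes summed to 16.5 and 14.6 FPKM, or 783 and 787 counts. The epididymis sums of these libraries were 9.27 and 7601 FPKM. The part of epididymis transcripts in the values of the members was not tested. Without CD44-KO replicate 2 the log2 fold changes of the members were 1.34 to 3.02, and without it and wild type replicate 3 together 1.01 to 2.51, with adjusted p by edgeR up to 0.450.

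**Figure D5:**
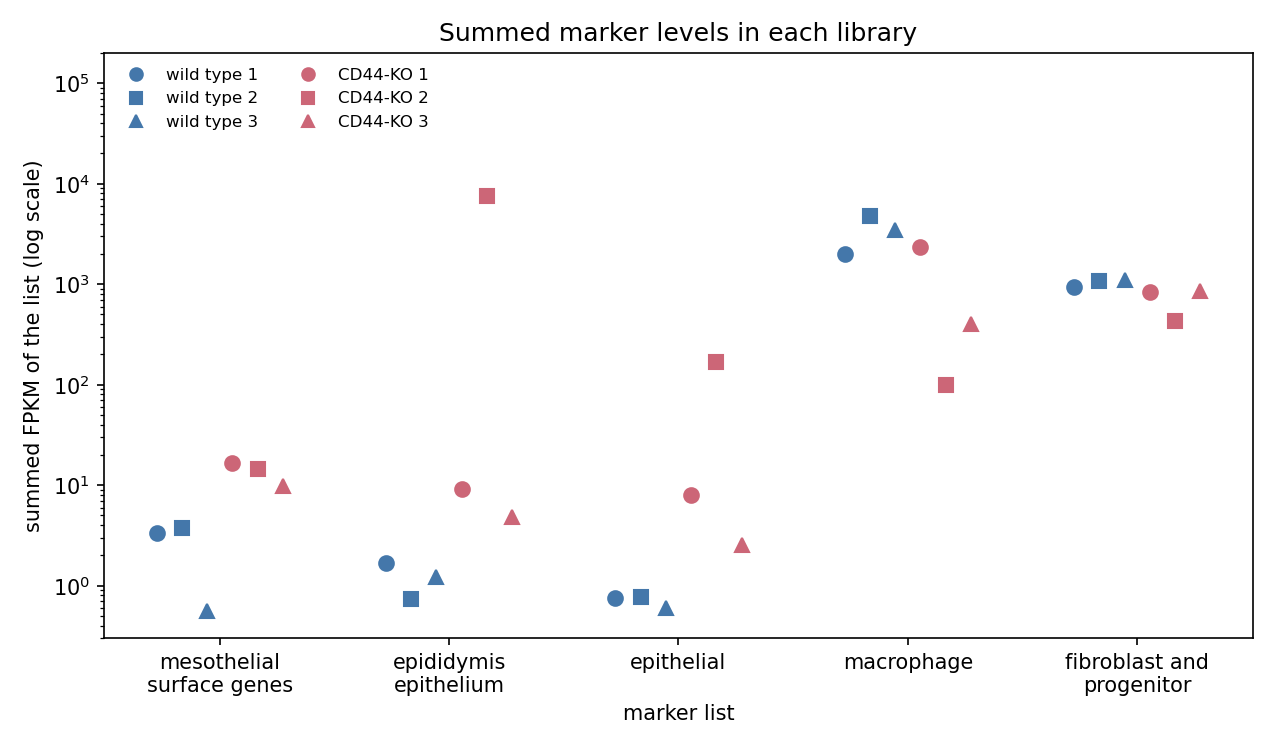
Summed FPKM (log scale) of 5 marker lists in each library, wild type in blue and CD44-KO in red, with a shape per replicate. The mesothelial sum is 9.89 to 16.5 in CD44-KO and 0.56 to 3.78 in wild type, while CD44-KO replicate 2 is the highest point for epididymis and the lowest for macrophage markers.

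The levels of other cell types' markers also differed between libraries. The summed level of 7 macrophage markers, led by Lyz2 and Cd68, was 2002 to 4770 FPKM in wild type and 2373, 100.4 and 400.0 FPKM in CD44-KO replicates 1 to 3. In the same CD44-KO libraries, in that order, the 6 members summed to 16.5, 14.6 and 9.89 FPKM. Of 8 fibroblast and progenitor markers 1 fell, Pi16, from 38.1 ± 6.38 to 10.2 ± 4.27 CPM (adjusted p by edgeR 0.0499, or 0.0502 with the size factors of DESeq2, and 0.246 without wild type replicate 3). Their sum was 934.8 to 1101 FPKM in wild type and 432.1 to 852.8 in CD44-KO. Those of 6 endothelial markers overlapped, at 187.3 to 416.9 against 287.4 to 534.7 FPKM. The part of these shifts in the values of the members was not tested.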

How the data were processed

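Poly(A)-selected RNA was sequenced on a NovaSeq 6000, per the labels' protocols. The submitters' processing notes list DESeq2, RSEM, HISAT2 and StringTie 1.3.1, with no roles; the sources used here do not give build, annotation or strandedness. The authors deposited expected counts per gene (estimated, unscaled) and FPKM (rounded to 2 decimals by the authors). The authors' deposited comparison table gives a log2 fold change, a p-value and an adjusted p-value per gene, and its counts are the expected counts rounded (0 genes differ). Gene identifiers matched GENCODE M21 for 99.75% of the 22322 rows.

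Expected counts were rounded and fitted with edgeR 4.0.16 in R 4.3.3: filterByExpr by genotype (minimum count 10, leaving 13829 genes), TMM scaling, and the quasi-likelihood F-test with robust estimation for CD44-KO against wild type, Benjamini-Hochberg adjusted over all genes tested and called under 0.05. CPM are TMM-scaled. SEs were computed from the log2 fold change and F (its size over root F), and 95% intervals use the moderated degrees of freedom. Profiles used log2 CPM with a prior count of 2. The fit was tested on simulated data. It called 1.5%, 60.6% and 72.3% of genes given a log2 fold change of 1, 2 and 3 in size, with 12 false calls. Total counts of 15543317 to 18765009 a library make values under about 10 counts imprecise; PCR reads are not independent molecules, so limits from 0 counts cover counting error only.

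The alternatives were DESeq2 1.42.0, its size factors (RLE), no filter, the replicate number as a block, and each library left out; leaving out 2 libraries together was added after seeing the data. Named were Cd44, the members, the lists of other mesothelial genes and of relatives, from each other list its 2 most abundant genes and any called, and the 5 genes closest in profile by each measure, among tested genes of 1 CPM or more, leaving out members, unnamed gene models and pseudogenes. The values of 1 relative are not reported here. The members and lists were chosen with earlier results of these data known.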

Additional observations from a re-analysis of the deposited data

How the results depend on the processing

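All 6 members kept a positive log2 fold change under the 11 alternatives, and no edgeR fit among them called any. DESeq2 called 5, with log2 fold changes of 2.53 (Msln), 2.63 (Upk3b), 2.92 (Upk1b), 2.84 (Lrrn4) and 1.60 (Gpm6a). With 1 library left out they ran from 1.98 to 3.25 (Msln), 2.09 to 3.12 (Upk3b), 2.43 to 3.63 (Upk1b), 2.40 to 3.86 (Lrrn4), 1.28 to 1.84 (Gpm6a) and 2.11 to 3.90 (Muc16).

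Genes called higher numbered 240, but 145 with no filter, 1478 by DESeq2, 0 with wild type replicate 3 and CD44-KO replicate 2 left out together, and 0 to 1007 with 1 library left out. Genes called lower numbered 122, but 1441 by DESeq2, 0 without those 2 libraries, and 0 to 1363 with 1 left out. Without wild type replicate 3 edgeR called 0 either way. Of the other mesothelial genes 1 was called higher and 0 lower, against 7 and 3 by DESeq2, 0 higher with no filter or without those 2 libraries, and 0 to 6 higher and 0 to 1 lower with 1 left out. The sign of 2 genes near 0 turned: Cldn15 was -0.068 without wild type replicate 2 (-0.068 to 0.30 with 1 library left out), and Lrrn3, -0.44 to 0.39 with 1 library left out, was 0.0073 with the replicate block, 0.39, 0.08 and 0.36 without wild type replicate 1, wild type replicate 3 and CD44-KO replicate 2, and 0.48 without the last pair together. The cause of these shifts was not tested.

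Replicate numbers did not pair the libraries: same-numbered libraries had correlations of deviations of -0.321, -0.218 and -0.0176. With the number as a replicate block edgeR called 0 genes higher and 0 lower, 0 members among them (log2 fold changes 1.68 to 3.22, all 6 higher at an unadjusted p under 0.05, as were 11.5% of genes), and 0 other mesothelial genes. Counting limits the values of wild type replicate 3, which held 32 counts for the 6 members although its total count was the highest of the 6 libraries.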
